A study of Mus musculus with 20 samples.

Results

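Collagen chain genes encode the subunits of collagens, the proteins that wind into triple helices and make up most of the fibrous scaffold around cells. They were described here in primary mammary tumors and in cultured Mvt1 cells with and without knockdown of *Rnaseh2c*, which encodes a subunit of RNase H2, the enzyme complex that cuts RNA out of RNA/DNA hybrids. A gene was included where its symbol had the form Col, a number, a and a second number in the tumor table, which gave 41 of 20188 genes. The same 41 symbols were found by Ensembl identifier among the 50667 Ensembl genes of the cell table. The rule used symbols and no measured value, though it was set with earlier results of these data known.

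Mvt1 is a metastatic mouse mammary carcinoma cell line, and it was transduced with a lentiviral scramble shRNA (scr) or with sh4, an shRNA against *Rnaseh2c*. The 4 groups had 3 libraries each. The scr and sh4 tumors grew from these cells in the mammary fat pad of female FVB mice and were taken at day 30, and each of 3 experiments gave 1 scr and 1 sh4 tumor. The scr and sh4 cells were 3 culture plates each, kept under puromycin. All 4 groups therefore carry a lentiviral shRNA vector, and the knockdown groups rest on a single shRNA. The tumor RNA came from small pieces of whole tumor, so host stroma and tumor cells were read together, and fewer cells of a type and less RNA per cell cannot be told apart. The labels give no age for the mice, and the paper states an approximate age at which they were obtained. For the plates nothing says that they were separate transductions, so a p-value measures the spread between plates.

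Collagens are sorted by the structures they build. Fibrillar chains (types I, II, III, V, XI, XXIV and XXVII) form the banded fibers of connective tissue, type IV chains form the sheet of basement membranes, and type VI chains form beaded microfilaments near cells. Fibril-associated collagens decorate the fibers, type VII anchors basement membrane to the fibers beneath it, types VIII and X build short-chain networks, multiplexins (types XV and XVIII) sit in basement membrane zones, and types XIII, XVII, XXIII and XXV cross the cell membrane. In mammary tumors the fibers are known as a product mostly of fibroblasts of the stroma, while carcinoma cells contribute several of the other types.

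*Rnaseh2c* itself was checked first. The 3 scr tumors read 26.9, 52.0 and 25.9 RPKM (reads per kilobase of gene and per library size) and the 3 sh4 tumors 10.2, 22.4 and 19.8, with no overlap. The log2 fold change, always given as sh4 minus scr on the log2(value + 0.5) scale, was −0.98 ± 0.37 (standard error; limma adjusted p = 0.995, exact two-sided permutation p = 0.10, the smallest that 3 against 3 can give). In cells the plates read 5.83, 7.06 and 5.34 FPKM (fragments, likewise scaled) with scr and 3.19, 5.36 and 4.28 with sh4, a log2 fold change of −0.48 ± 0.18 (limma adjusted p = 0.236, exact permutation p = 0.20). The groups of plates overlapped, at 5.34 and 5.36. Keratins *Krt8* and *Krt18* stood above 160 in all 12 libraries, while *Epcam* and *Cdh1*, other epithelial markers, reached at most 2.09 RPKM in tumors and 0.023 FPKM in cells.

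Collagen transcripts were abundant in the tumors and scarce in the cultured cells. Summed over the 41 genes, the scr tumors held 1125, 697 and 890 RPKM and the sh4 tumors 867, 651 and 1529.9, between 0.134% and 0.353% of the summed RPKM of a library. The groups overlapped, and the highest tumor and the lowest were both sh4. *Col1a1*, *Col1a2* and *Col3a1*, the chains of type I and type III collagen, made up 54.5% to 69.6% of that sum. In cells the sum was 48.2, 47.4 and 49.4 FPKM with scr and 43.9, 43.7 and 45.0 with sh4, between 0.00505% and 0.00731% of the summed FPKM of the Ensembl genes, and the groups did not overlap. The 4 highest genes there, *Col18a1*, *Col5a1*, *Col4a5* and *Col16a1*, held 87.2% to 89.3% of it. The tables were normalized apart from each other and come from mRNA and from total RNA, so levels are set side by side without a test. The cell levels, including those at 0, count Ensembl genes only and leave out assembled loci, which hold 46.2% to 52.6% of the summed FPKM.

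**Figure D1:**
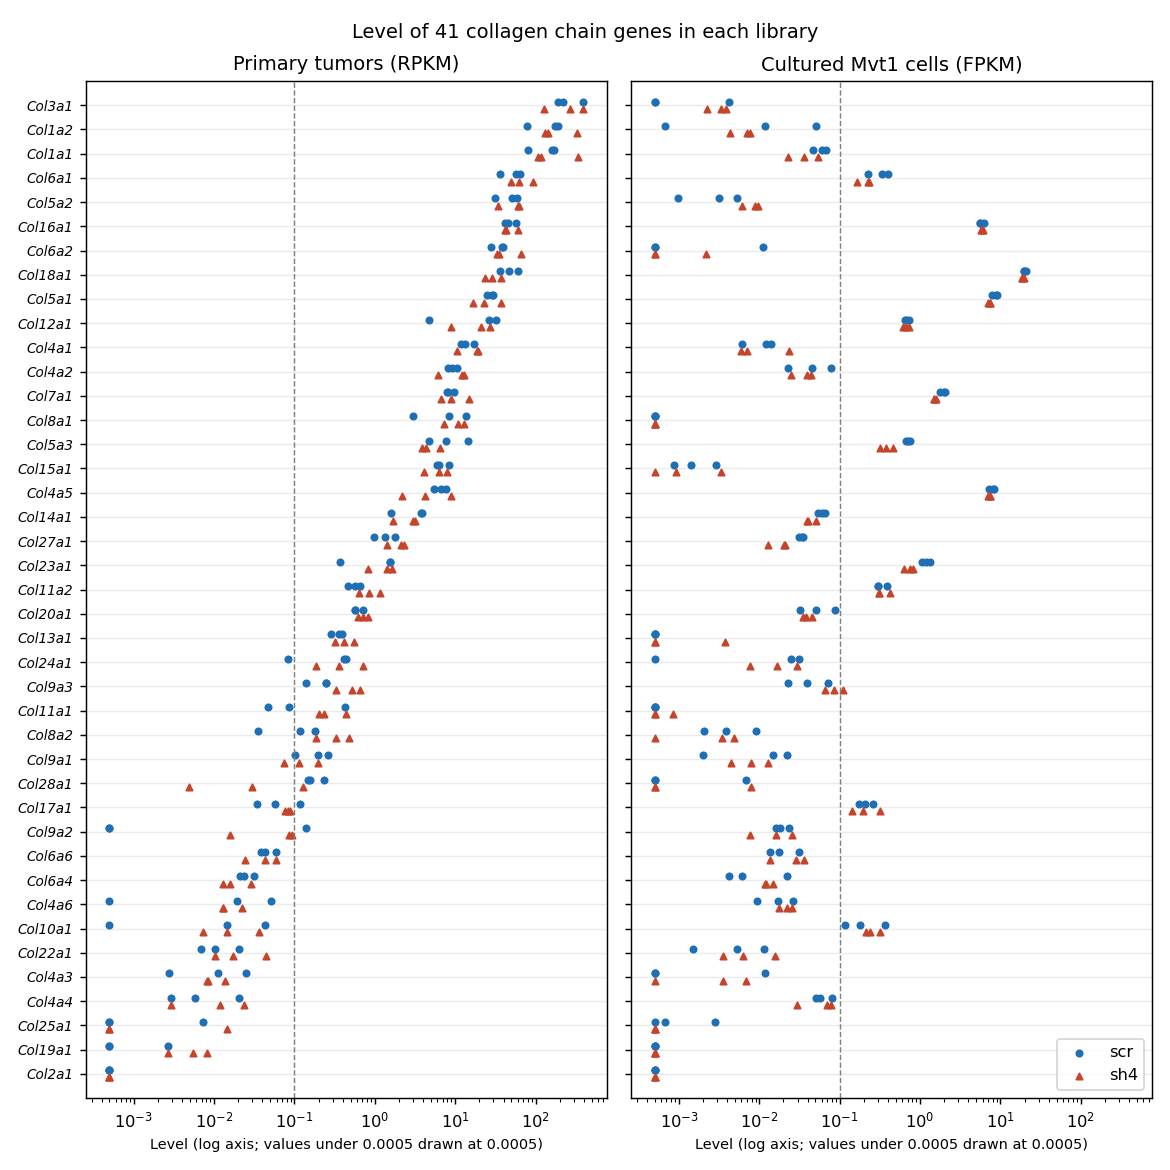
Level of each of the 41 collagen chain genes (rows, ordered by mean in tumors) in 6 tumor libraries (left, RPKM) and 6 cell libraries (right, FPKM), on log axes. Circles are scr and triangles sh4 libraries, and the dashed line marks the mean of 0.1 needed for a test. *Col3a1*, *Col1a2* and *Col1a1* lead in tumors and lie under 0.1 in every cell library, while *Col18a1* leads in cells.

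By level the 41 genes fell into 4 sets. The first holds 5 genes with a mean of at least 1 in both tables, which are *Col16a1*, *Col18a1*, *Col5a1*, *Col7a1* and *Col4a5*. Another 4, *Col6a1*, *Col12a1*, *Col5a3* and *Col23a1*, had at least 1 RPKM in tumors and 0.1 to 1 FPKM in cells. The set of 11 with at least 1 RPKM in tumors and under 0.1 FPKM in cells takes in *Col3a1*, *Col1a2*, *Col1a1*, *Col5a2*, *Col6a2*, *Col4a1* and *Col4a2*. The other 21 lay under 1 in both, and *Col2a1*, the main chain of cartilage collagen, was listed at 0 in all 12 libraries. Of 12 housekeeping genes, 0 were at 0 in any library of either table. Most of them averaged lower in cells, as *Ppia* at 3092 RPKM and 189 FPKM and *Gapdh* at 624 and 148, while *Actb* averaged 742 and 949. The same cutoff therefore need not mark the same level in both tables.

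Fibroblast markers were also high in tumors and mostly near 0 in cells. Of 12 markers found, 11 were tested in tumors, where their summed RPKM ran from 292 to 608 with scr and from 462 to 735 with sh4. *Postn* was the largest share of it, at 381, 117 and 353 RPKM with scr and 558, 296 and 407 with sh4, while 7 of the 11 had fold changes below 0, the median was −0.075 and 0 were called. In cells 10 of the 12 stayed under the test minimum, with *Thy1* and *Tcf21* at 0 in all 6 libraries and *Postn*, the leading marker in tumors, at a mean of 0.001 FPKM. The sum in cells was 13.1 to 15.8 FPKM with scr and 16.1 to 16.9 with sh4, nearly all of it *Twist1* at a mean of 15.1 FPKM. Their part in the collagen levels was not tested.

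The sequences upstream of the genes that lead each table are shown to let these be compared. Each is the 250 bases before a RefSeq transcript start on GRCm38.p6, on the gene's strand, with each match on either strand to the CCAAT motif (ATTGG on the other strand), to the TATAAA motif (TTTATA on the other strand) and to the GGGCGG motif (CCGCCC on the other strand) in capitals. *Col1a2* (chr6:4505368-4505617, + strand) and *Col3a1* (chr1:45311288-45311537, + strand) lead in tumors and are near 0 in cells, and *Col18a1* (chr10:77166531-77166780, − strand, the first of its starts in the table) leads in cells.
Col1a2: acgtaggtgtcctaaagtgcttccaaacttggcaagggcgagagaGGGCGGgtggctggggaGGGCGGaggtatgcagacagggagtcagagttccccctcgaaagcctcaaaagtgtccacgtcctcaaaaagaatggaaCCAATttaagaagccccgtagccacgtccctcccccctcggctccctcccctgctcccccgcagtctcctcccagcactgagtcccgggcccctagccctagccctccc
Col3a1: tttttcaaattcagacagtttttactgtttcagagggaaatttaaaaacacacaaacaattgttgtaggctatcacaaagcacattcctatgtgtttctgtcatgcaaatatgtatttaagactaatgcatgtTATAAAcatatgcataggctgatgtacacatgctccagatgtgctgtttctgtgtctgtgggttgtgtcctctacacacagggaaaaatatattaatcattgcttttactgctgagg
Col18a1: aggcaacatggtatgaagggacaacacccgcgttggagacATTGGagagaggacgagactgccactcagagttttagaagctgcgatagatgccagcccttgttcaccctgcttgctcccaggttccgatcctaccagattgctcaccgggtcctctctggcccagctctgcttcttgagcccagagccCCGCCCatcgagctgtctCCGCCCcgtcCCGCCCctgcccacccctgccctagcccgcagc
The *Col1a2* window holds 1 CCAAT and 2 GGGCGG matches at 62% GC, the *Col3a1* window 1 TATAAA match and 0 of the others at 35.2% GC, and the *Col18a1* window 1 CCAAT and 3 GGGCGG matches at 62% GC. The window of another *Col18a1* start (chr10:77113706-77113955, not printed) holds 0 CCAAT, 0 TATAAA and 0 GGGCGG matches at 57.6% GC. Which start these cells use was not measured. Promoters were matched for 33 of the 41 genes, 36 windows in all. CCAAT was found in 13 of the 36 (36.1%) against 33.8% of 32851 promoters, TATAAA in 5 (13.9%) against 12.4%, and GGGCGG in 21 (58.3%) against 32.7%. A match is a run of letters and not a measured binding site.

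None of the collagen genes was called between sh4 and scr tumors. Among those averaging 1 RPKM or more the smallest unadjusted p was that of *Col18a1*, which was lower in the sh4 tumor of all 3 experiments, while *Col1a1*, *Col1a2* and *Col3a1* differed in direction between experiments. Of the 41 genes, 29 reached the mean of 0.1 RPKM over the 6 tumors, and 0 of them had a limma adjusted p under 0.05, against 0 of 13487 genes tested in all (0%). Without the variance trend limma again called 0. An unadjusted p under 0.05 was found for 3 of the 29, *Col18a1* lower and *Col9a3* and *Col8a2* higher, against 4.18% of all genes (2.16% higher and 2.02% lower). Groups did not overlap for 3 of 29, 2 higher and 1 lower, against 9.17% of all genes (4.19% higher and 4.98% lower). The other 12 genes, *Col17a1* at 0.0757 RPKM the highest of them, were below the test minimum.

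The log2 fold changes of the 29 genes ran from −0.71 to 0.48, with 10 below 0 and a median of 0.15, against 57.4% below 0 and a median of −0.04 over all 13487 genes. That median moved with single tumors, to −0.04 without the third sh4 tumor and to 0.34 without the second. Within experiment 1 the median over the 29 genes was −0.04, within experiment 2 it was 0.14 and within experiment 3 it was 0.42. Each experiment holds a single tumor of each group, so these are differences between 2 libraries. Of the 29 genes, 3 (*Col18a1*, *Col9a1* and *Col28a1*) were lower in the sh4 tumor of all 3 experiments, against 15% of all genes, and 6 (*Col5a2*, *Col8a2*, *Col9a3*, *Col11a1*, *Col11a2* and *Col13a1*) were higher in all 3, against 11.9%.

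Type I collagen, the main fiber of connective tissue, is built from the products of *Col1a1* (mm9 chr11:94797538-94814356) and *Col1a2* (mm9 chr6:4454814-4491543). *Col1a1* read 169, 80.6 and 159 RPKM in scr tumors and 109, 117 and 337 in sh4 tumors. *Col1a2* read 189, 78.8 and 174 RPKM with scr and 131, 145 and 332 with sh4. The third sh4 tumor stood highest for both and the second scr tumor lowest, and the other tumors overlapped. The log2 fold changes were 0.33 ± 0.47 for *Col1a1* and 0.43 ± 0.44 for *Col1a2* (limma adjusted p = 0.997 and 0.995). The 95% interval of *Col1a1*, −0.77 to 1.43, leaves room for a change of more than 1 log2 unit upward. Without the third sh4 tumor the *Col1a1* value was −0.19, and that of *Col1a2* stayed above 0, between 0.0029 and 0.67, whichever tumor was left out.

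*Col3a1* (mm9 chr1:45368383-45406551), the type III chain found beside type I in loose connective tissue and vessel walls, was the most abundant collagen transcript by RPKM. It read 395, 220 and 192 RPKM in scr tumors and 270, 128 and 395 in sh4 tumors. The groups covered nearly the same range, and the log2 fold change was −0.10 ± 0.44 (limma adjusted p = 0.997). It became 0.25 when both tumors of experiment 2 were left out. *Col3a1* was not a fixed multiple of *Col1a1*, its ratio being 2.34, 2.74 and 1.21 in the scr tumors and 2.48, 1.09 and 1.17 in the sh4 tumors.

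The type V chains regulate the width of type I fibers. *Col5a2* was higher in the sh4 tumor of each experiment, with 59.6, 31.1 and 50.9 RPKM against 62.6, 33.9 and 60.9, but by little, for a log2 fold change of 0.15 ± 0.32 (limma adjusted p = 0.997). *Col5a1* read 28.5, 24.9 and 29.6 RPKM with scr and 22.9, 16.9 and 37.6 with sh4 (−0.17 ± 0.28). *Col5a3* read 7.75, 14.7 and 4.72 RPKM with scr and 3.88, 4.37 and 6.55 with sh4. Its log2 fold change of −0.71 ± 0.39 (limma adjusted p = 0.995) was the lowest among the 29 genes, and its groups overlapped because experiment 3 went the other way. The second scr tumor, the highest for *Col5a3*, was also the highest by far in fat cell markers, with 2521 RPKM summed over 7 genes against 30.1 to 297 in the other 5 tumors, and their part in this value was not tested.

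**Figure D2:**
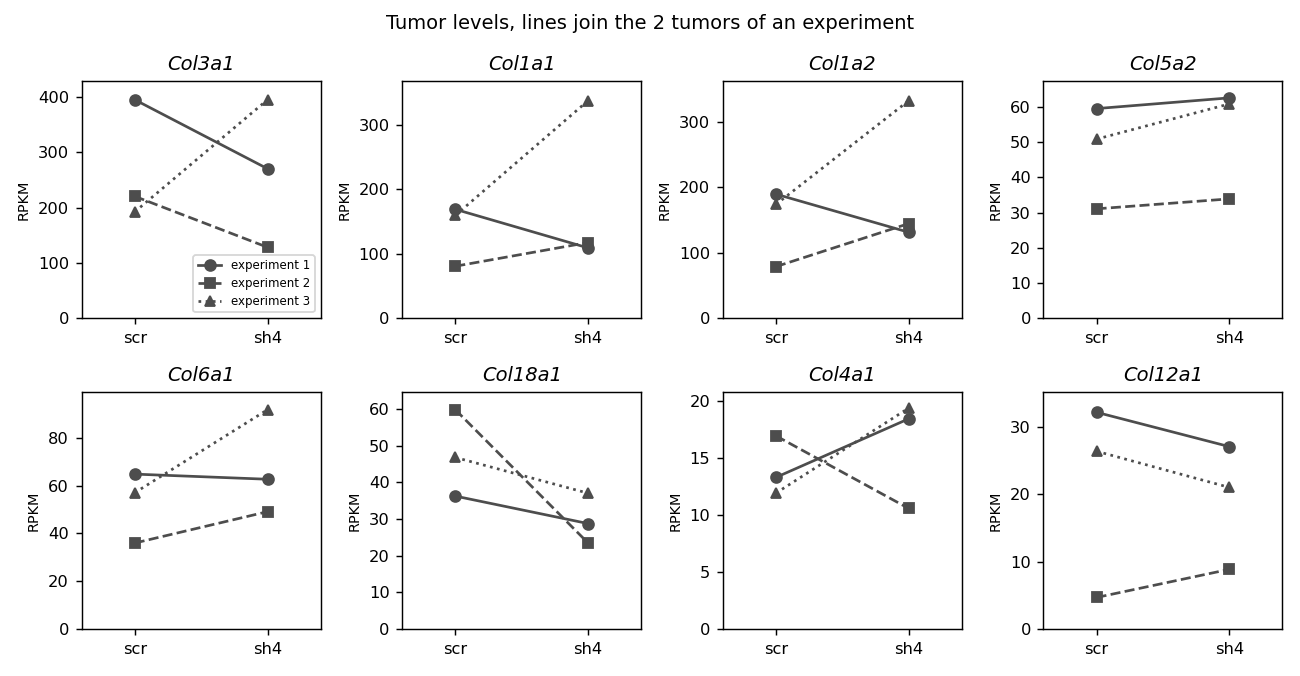
RPKM of 8 collagen chain genes in the scr and sh4 tumor of each experiment, with lines joining the tumors of an experiment and axes starting at 0. *Col18a1* is lower in the sh4 tumor of all 3 experiments, and *Col5a2* is slightly higher in each sh4 tumor. *Col1a1*, *Col1a2* and *Col3a1* go in different directions between experiments, and *Col12a1* is low in both tumors of experiment 2.

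Type VI chains had the same highest and lowest tumors as type I. *Col6a1* read 64.9, 36.0 and 57.1 RPKM in scr tumors and 62.7, 49.1 and 91.9 in sh4 tumors, and *Col6a2* read 38.4, 27.8 and 39.3 against 35.1, 33.3 and 65.7. The third sh4 tumor was again highest and the second scr tumor lowest. The log2 fold changes were 0.36 ± 0.30 and 0.29 ± 0.29 (both limma adjusted p = 0.995). *Col6a4* and *Col6a6* were below the test minimum.

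Type IV collagen of basement membranes was carried by *Col4a1* and *Col4a2*, which lie head to head on mouse chromosome 8 with RefSeq starts 21 bases apart. *Col4a1* read 13.3, 17.0 and 11.9 RPKM in scr tumors and 18.5, 10.6 and 19.4 in sh4 tumors, and *Col4a2* read 9.11, 10.6 and 8.06 against 12.1, 6.07 and 12.8. Both were higher in the sh4 tumor of experiments 1 and 3 and lower in that of experiment 2. The log2 fold changes were 0.16 ± 0.27 and 0.09 ± 0.29 (limma adjusted p = 0.997 for both). *Col4a5*, an X-linked chain of the same family, read 7.65, 5.47 and 6.73 RPKM with scr and 8.82, 2.19 and 4.24 with sh4 (−0.52 ± 0.42, limma adjusted p = 0.995). *Col4a3*, *Col4a4* and *Col4a6* stayed below the minimum, with means of 0.011 to 0.020 RPKM.

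Endothelial markers, of the cells that lie on basement membrane in vessels, summed to 31.4 to 35.8 RPKM in scr tumors and 41.5 to 62.2 in sh4 tumors, with 10 of 10 genes higher on the fold change and 0 called. Over all genes tested 57.4% were below 0. Of the 10, 4 were higher without overlap, against 4.19% of all genes. *Emcn*, a sialomucin of veins and capillaries, read 3.85, 2.27 and 3.65 RPKM against 8.92, 5.48 and 6.23 (0.97 ± 0.27, limma adjusted p = 0.995). *Col4a1* and *Col4a2* overlapped between groups, as did the endothelial markers outside those 4, *Egfl7* and *Pecam1* among them. The part of these markers in the type IV values was not tested.

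The paired chains of types I, IV and VI kept close ratios across tumors even where their levels spread widely. The ratio of *Col4a1* to *Col4a2* lay between 1.46 and 1.75 in the 6 tumors, that of *Col1a2* to *Col1a1* between 0.978 and 1.23, and that of *Col6a1* to *Col6a2* between 1.29 and 1.79. Among the 190 pairs that can be formed from collagen genes averaging 1 RPKM or more, the standard deviations of the log2 ratio of these pairs, 0.095, 0.14 and 0.17, were the 3 smallest, against a median of 0.64. Type V was not of this kind, with 0.38 for *Col5a2* to *Col5a1* and 0.71 for *Col5a1* to *Col5a3*, and *Col3a1* to *Col1a1* stood at 0.62. These are descriptions over 6 tumors in which all pairs share library and normalization, and no test was made.

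**Figure D3:**
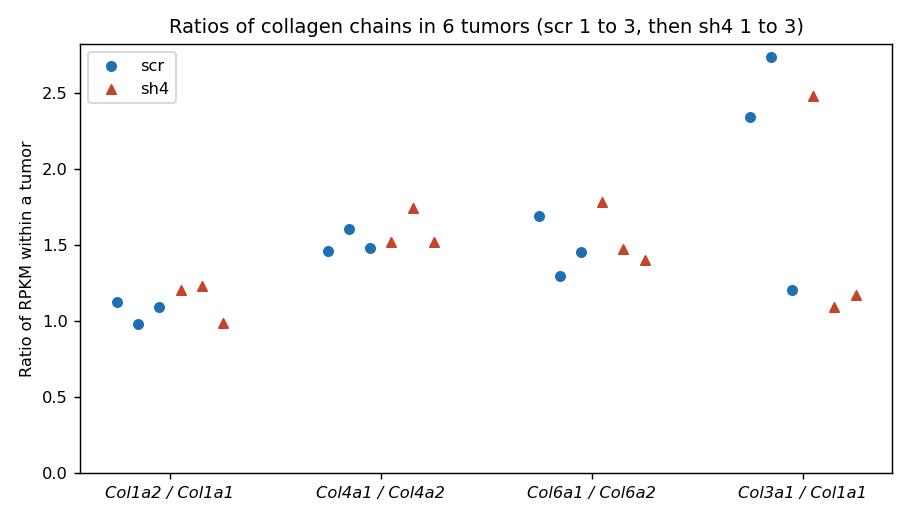
Ratio of RPKM between chains within each of 6 tumors (circles scr, triangles sh4), on a linear axis from 0. The first 3 columns are chains of one collagen type, with ratios of 0.978 to 1.23, 1.46 to 1.75 and 1.29 to 1.79. The fourth, *Col3a1* to *Col1a1*, runs from 1.09 to 2.74.

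The multiplexin *Col18a1* (mm9 chr10:76514923-76629293), whose product ends in the fragment known as endostatin, read 36.3, 59.8 and 46.8 RPKM in scr tumors and 28.8, 23.4 and 37.0 in sh4 tumors. The groups overlapped, since the third sh4 tumor was above the first scr tumor. The log2 fold change was −0.67 ± 0.24, with a 95% interval of −1.23 to −0.099 (limma unadjusted p = 0.027, adjusted p = 0.995; exact permutation p = 0.20). It ran from −0.85 to −0.49 as each tumor was left out. The sh4 tumor differed from the scr tumor by −0.33 log2 units in experiments 1 and 3 and by −1.33 in experiment 2. *Col15a1*, the other multiplexin, read 5.90, 8.34 and 6.34 RPKM against 6.31, 4.10 and 7.89 (−0.19 ± 0.27).

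Among fibril-associated collagens, *Col16a1* was the steadiest of the chains averaging 1 RPKM or more, its highest tumor being 1.46 times its lowest, with 42.0, 57.8 and 45.1 RPKM in scr tumors and 41.6, 43.1 and 60.6 in sh4 tumors. Its log2 fold change was −0.0035 ± 0.21, with a 95% interval of −0.49 to 0.48, and a change within that range could not be seen here. *Col12a1*, of tendon and other stretched tissue, spread most, 6.89 times from the lowest to the highest tumor. It read 32.2, 4.67 and 26.4 RPKM with scr and 27.1, 8.84 and 21.0 with sh4, low in both tumors of experiment 2, for a log2 fold change of 0.10 ± 0.71 that became −0.74 without the second scr tumor. *Col14a1* stood between 1.58 and 3.89 RPKM.

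Experiment 2 also stood apart in transcript length. An index of short against long transcripts, taken as the median log2 deviation of transcripts shorter than 1000 bases less the same median for those longer than 4000 bases, was 0.31 and 0.41 in its scr and sh4 tumor and between −0.37 and 0.058 in the other 4. Of the 29 collagen genes tested, 26 have transcripts over 4000 bases. With the index as a covariate the median over them was 0.19 and again 0 were called. The part of transcript length in the low *Col12a1* of experiment 2 was not tested.

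The genes at low level gave the other values with an unadjusted p under 0.05. *Col9a3*, a chain of the fibril-associated type IX of cartilage, read 0.138, 0.247 and 0.246 RPKM in scr tumors and 0.331, 0.516 and 0.655 in sh4 tumors, without overlap (0.48 ± 0.17, limma adjusted p = 0.995). *Col8a2*, a type VIII chain known from the cornea, read 0.035, 0.117 and 0.181 RPKM against 0.187, 0.334 and 0.480, also without overlap (0.44 ± 0.17, limma adjusted p = 0.995). Their fold changes are on the log2(RPKM + 0.5) scale and understate the ratio of such low genes. *Col8a1*, which pairs with *Col8a2*, was far higher at 8.47, 2.96 and 13.8 against 10.9, 7.18 and 13.0 RPKM, and its groups overlapped (0.47 ± 0.49). *Col7a1*, of anchoring fibrils, read 8.21, 8.02 and 9.67 RPKM with scr and 6.74, 8.86 and 15 with sh4 (0.16 ± 0.29). The other 9 genes tested, *Col27a1* at a mean of 1.66 RPKM the highest, had log2 fold changes from −0.30 to 0.40. The lowest of them, *Col28a1*, was the gene lower in sh4 tumors without overlap, at 0.147, 0.236 and 0.157 RPKM against 0.128, 0.005 and 0.030.

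In cultured cells no collagen gene passed the adjusted test, and those with the smallest p, *Col5a3*, *Col23a1*, *Col7a1* and *Col5a1*, had lower values with sh4. Of the 41 genes, 12 reached a mean of 0.1 FPKM and 29 did not, with *Col8a1*, *Col19a1* and *Col2a1* at 0 in all 6 plates. Of the 12, 0 had a limma adjusted p under 0.05, against 1.28% of 21106 genes tested (0.521% higher and 0.758% lower), and limma without the variance trend also called 0. An unadjusted p under 0.05 was found for 4, all lower, against 18.9% of all genes (9.33% lower and 9.55% higher). Groups did not overlap for 5, all lower, against 27.5% of all genes (13.8% lower and 13.6% higher). The log2 fold changes ran from −0.46 to 0.083, with 8 of 12 below 0 and a median of −0.087, against 50.4% below 0 and a median of −0.0022 over all genes. The standard errors of the 12 genes were 0.048 to 0.14, so differences smaller than those in tumors, where they were 0.14 to 0.71, could be seen.

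*Col5a3* (mm9 chr9:20574494-20619511) was the lowest in fold change. It read 0.750, 0.678 and 0.714 FPKM with scr and 0.315, 0.457 and 0.381 with sh4, each sh4 plate below each scr plate. The log2 fold change was −0.46 ± 0.088 (limma adjusted p = 0.069), and it passed under 0.05 after quantile normalization (adjusted p = 0.045) and after median-ratio scaling (adjusted p = 0.049), while leaving out a plate gave adjusted p from 0.098 to 0.218. *Col23a1*, a transmembrane collagen, read 1.34, 1.07 and 1.17 FPKM with scr and 0.640, 0.756 and 0.806 with sh4, again without overlap (−0.45 ± 0.095, limma adjusted p = 0.083).

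*Col7a1* read 1.80, 2.02 and 1.98 FPKM with scr and 1.6, 1.48 and 1.48 with sh4 (−0.27 ± 0.071, limma adjusted p = 0.125). *Col5a1*, the partner chain of *Col5a3*, read 8.70, 7.82 and 8.97 FPKM against 7.36, 7.00 and 7.36 (−0.22 ± 0.066, limma adjusted p = 0.162). In both the groups did not overlap, and the gap between them was small beside the level. *Col18a1*, the most abundant, read 20.6, 19.9 and 19.7 FPKM against 18.5, 18.8 and 19.7, which separates the groups by less than 0.1 FPKM (−0.078 ± 0.048, limma adjusted p = 0.433).

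The rest of the 12 overlapped between groups. *Col4a5* read 7.12, 8.18 and 8.21 FPKM with scr and 7.46, 7.36 and 7.04 with sh4 (−0.096 ± 0.070), and *Col16a1* read 5.61, 5.62 and 6.22 against 5.85, 5.74 and 6.0 (0.012 ± 0.060, 95% interval −0.13 to 0.16). *Col12a1* at 0.614 to 0.733 FPKM, *Col6a1* at 0.166 to 0.395, *Col11a2*, *Col10a1* and *Col17a1* had limma adjusted p from 0.34 to 0.996. *Col4a5* was the 1 type IV chain tested in cells, where the means of *Col4a1* and *Col4a2* were 0.011 and 0.042 FPKM.

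**Figure D4:**
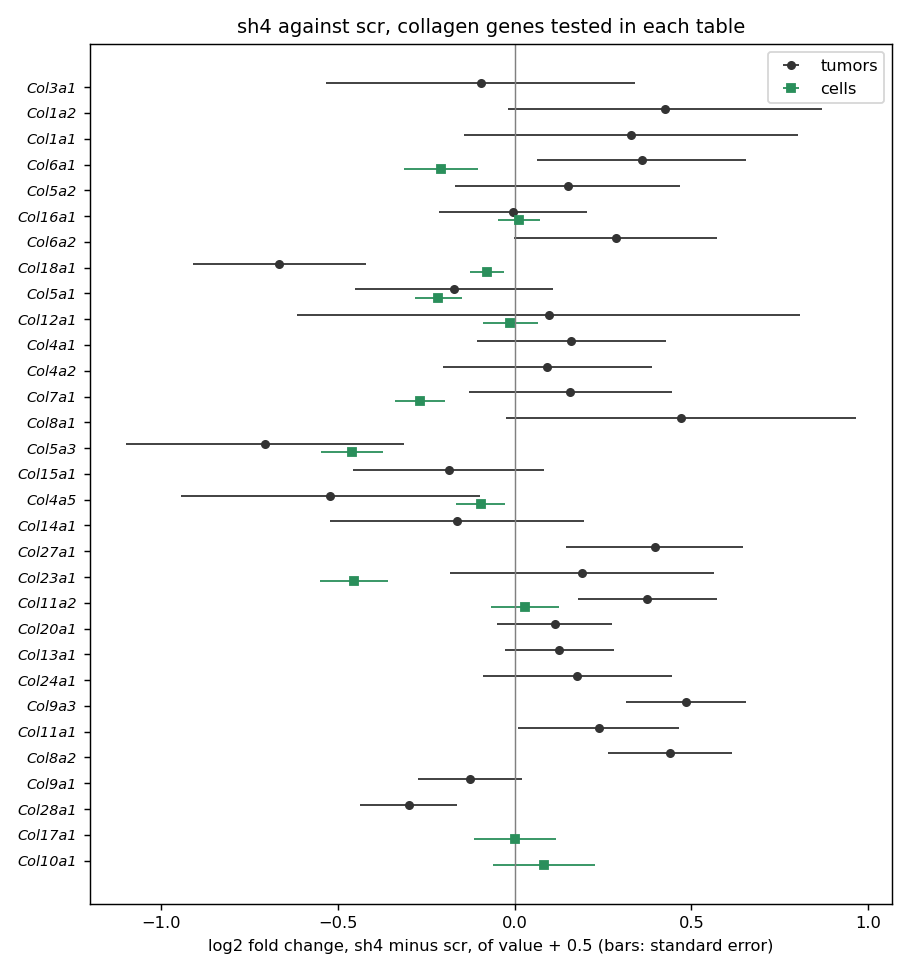
log2 fold change, sh4 minus scr, on the log2(value + 0.5) scale, of the 29 collagen genes tested in tumors (circles) and the 12 tested in cells (squares), with standard errors as bars. None passed the adjusted test in either table. Tumor bars are longer, with standard errors of 0.14 to 0.71 against 0.048 to 0.14 in cells.

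Side by side, 10 genes were tested in both tables, of which 4 were below 0 in both and 1 above 0 in both. *Col18a1* had −0.67 in tumors and −0.078 in cells, *Col5a3* −0.71 and −0.46, and *Col5a1* −0.17 and −0.22. *Col23a1* read 1.54, 0.369 and 1.57 RPKM in scr tumors and 0.819, 1.64 and 1.43 in sh4 tumors. Its log2 fold change was 0.19 ± 0.37 there, beside −0.45 in cells, and the sh4 tumor was the higher in experiment 2 alone. *Col7a1* was at 0.16 in tumors beside −0.27 in cells. No difference between the tables was tested.

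The enzymes that make collagen were present in both tables. Of 17 genes tested in tumors from the list of collagen processing, 0 were called, 13 were below 0 and the median was −0.22. *P4ha1*, a prolyl 4-hydroxylase subunit, read 39.1, 39.8 and 43.0 RPKM with scr and 31.4, 32.8 and 32.2 with sh4 (−0.33 ± 0.14, limma adjusted p = 0.995), and its partner *P4hb* read 203, 207 and 212 against 163, 155 and 179. The lysyl hydroxylase *Plod1* read 34.1, 32.2 and 36.8 RPKM against 28.7, 27.2 and 26.5. In all 3 of these each sh4 tumor was below each scr tumor, as for 4 of the 17 genes, against 4.98% of all genes. *Pcolce2*, an enhancer of procollagen cleavage, read 26.8, 33.3 and 22.4 RPKM with scr and 24.1, 11.3 and 15.2 with sh4 (−0.74 ± 0.29).

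In cells 17 genes of that list were tested and *Adamts14*, a protease that removes the amino end of procollagen, was the 1 called, lower, against 0.758% of all genes called lower. It read 7.33, 7.45 and 7.41 FPKM with scr and 5.68, 5.39 and 5.61 with sh4 (−0.38 ± 0.049, limma adjusted p = 0.035), and its adjusted p ran from 0.043 to 0.166 as each plate was left out, under 0.05 in 1 of 6. *Bmp1*, which removes the carboxyl end, read 38.6, 39.5 and 41.3 FPKM against 35.1, 33.9 and 33.1 (−0.22 ± 0.052, limma adjusted p = 0.099). *Plod1* at −0.21 and *P4ha1* at −0.18 also did not overlap between groups and were not called. Of the 17 genes, 11 were below 0 and 6 above 0. Without overlap 5 were lower, against 13.8% of all genes, and 2 were higher, against 13.6%. *Pcolce2*, at −0.74 in tumors, was higher in each sh4 plate than in each scr plate (0.22 ± 0.075, limma adjusted p = 0.192). *Serpinh1*, the collagen chaperone HSP47, read 59.7, 74.2 and 71.3 FPKM against 83.7, 79.0 and 73.2 (0.20 ± 0.099).

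Crosslinking enzymes of the lysyl oxidase family were present in both tables. *Lox* stood at 4.28 to 16.7 RPKM in tumors and at 0 in all 6 cell plates. *Loxl3* had the highest mean of the 5 members in tumors, 20.9 RPKM, and a mean of 11.1 FPKM in cells, where *Loxl4* was highest at 19.7 FPKM. In tumors *Loxl4* read 3.34, 2.84 and 2.96 RPKM with scr and 2.66, 1.00 and 1.35 with sh4 (−0.78 ± 0.30, limma adjusted p = 0.995). In cells it read 19.3, 20.8 and 21.5 FPKM against 19.8, 18.8 and 18.2 (−0.11 ± 0.061). Of 5 genes tested in tumors and 3 in cells, 0 were called.

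The main small leucine-rich proteoglycans, which coat collagen fibers, were present in tumors and near 0 in cells. *Bgn* read 142, 47.8 and 190 RPKM in scr tumors and 138, 144 and 136 in sh4 tumors, and *Dcn* read 163, 47.1 and 83.9 against 141, 30.3 and 60.9, with means of 0.0039 and 0.0028 FPKM in cells. *Ogn* was the highest of the list in cells, at 1.31, 0.912 and 1.15 FPKM with scr and 0.999, 0.873 and 0.899 with sh4. None of 8 tested in tumors or 3 tested in cells was called.

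Among collagen receptors *Ddr2*, a tyrosine kinase that binds fibrillar collagen, was higher in sh4 cells. It read 0.829, 0.738 and 0.792 FPKM with scr and 1.94, 2.03 and 1.94 with sh4, a log2 fold change of 0.94 ± 0.067 (limma adjusted p = 0.0080). With a plate left out the adjusted p ran from 0.020 to 0.066 and was under 0.05 in 1 of 6, and the fold change from 0.91 to 0.97. *Itga10*, the alpha chain of a collagen-binding integrin, read 0.332, 0.329 and 0.456 FPKM against 0.645, 0.696 and 0.634 (0.41 ± 0.088, limma adjusted p = 0.087), while *Ddr1*, the epithelial relative of *Ddr2*, read 5.03, 5.33 and 5.05 against 4.83, 4.56 and 4.64 (−0.12 ± 0.055). Of the 7 receptors tested in cells, 1 was called higher and 0 lower, against 0.521% and 0.758% of all genes.

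In tumors 0 of 9 receptors were called. *Ddr2* read 6.0, 4.37 and 6.46 RPKM there with scr and 7.33, 4.14 and 6.84 with sh4, overlapping (0.092 ± 0.27, limma adjusted p = 0.997). *Lair1*, an inhibitory collagen receptor of leukocytes, read 6.67, 5.01 and 11.2 RPKM with scr and 13.2, 12.1 and 12.1 with sh4, without overlap (0.74 ± 0.28, limma adjusted p = 0.995). *Ddr1* read 8.18, 8.53 and 9.61 RPKM against 7.61, 4.82 and 6.41 (−0.47 ± 0.21). The leukocyte markers summed to 1320.3 to 2058 RPKM with scr and 1100 to 1607 with sh4, most of it *Lyz2* of myeloid cells at a mean of 1366 RPKM. By fold change 4 of the 6 markers were below 0 and 2, *Cd3e* and *Cd79a*, above 0, with 0 called. Their part in the *Lair1* values was not tested.

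Of the partners of type IV collagen in the basement membrane, 10 of 12 tested in cells were below 0, 5 of 12 were lower in sh4 without overlap, against 13.8% of all genes, and 1 was called lower, against 0.758%. *Lamb2*, a laminin beta chain, read 6.55, 6.40 and 6.66 FPKM with scr and 5.08, 4.58 and 5.05 with sh4 (−0.38 ± 0.060) and was called at a limma adjusted p of 0.049, a call lost whichever plate was left out (0.063 to 0.185). *Agrn*, a heparan sulfate proteoglycan, read 18.9, 17.7 and 17.5 FPKM against 15.1, 13.6 and 13.9 (−0.33 ± 0.062, limma adjusted p = 0.068). *Lamc1*, the common gamma chain of laminins, read 42.6, 43.3 and 43.1 against 43.3, 41 and 42.5 (−0.025 ± 0.047). In tumors 0 of 14 of these genes were called, the fold changes ran from −0.50 to 0.11, and *Sparc*, a collagen-binding glycoprotein, read 510, 381 and 465 RPKM against 408, 433 and 639.

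**Figure D5:**
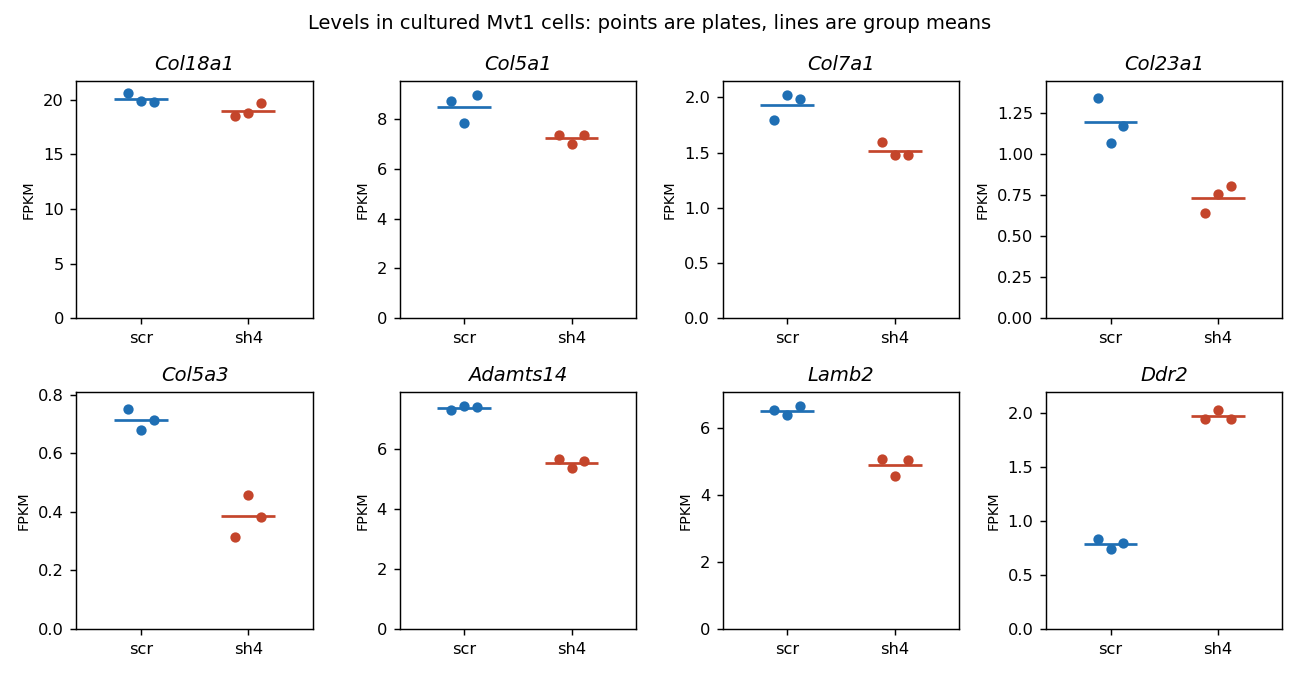
FPKM of 5 collagen chain genes and of *Adamts14*, *Lamb2* and *Ddr2* in the 3 scr and 3 sh4 plates of Mvt1 cells (points), with group means as lines and axes starting at 0. *Ddr2* is higher in each sh4 plate, at 1.94 to 2.03 against 0.738 to 0.829, and the other 7 are lower, *Col18a1* by the least.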

How the data were processed

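Expression was compared between sh4 and scr within each of 2 tables. For tumors the authors deposited RPKM, made after mRNA sequencing on a HiSeq2500, trimming with Trimmomatic and Tophat alignment to mm9 with Ensembl v70 transcripts. The cell values are FPKM of total RNA, which the authors deposited for Ensembl genes and for 239874 assembled loci. The submitters' processing notes list STAR 2.7 and TopHat2 2.1.0 without roles, and the program behind either unit is not given in the sources used here. The assembled loci hold 46.2% to 52.6% of the summed FPKM and were left out, so a collagen fragment assigned to such a locus is not counted. RPKM and FPKM scale with library total, and sequencing depth is unknown, so precision rests on 3 libraries per group. Strand use in counting is not given, and reads where genes overlap cannot be assigned. The 8 metastasis exome libraries were not analysed here.

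Only genes averaging 0.1 or more across the 6 libraries were tested. The test was limma (3.58.1, under R 4.3.3) on log2(value + 0.5), allowing the variance to follow a trend, and p-values were adjusted by Benjamini-Hochberg across all genes of the table, with a call at an adjusted p below 0.05. The test was also tried on simulated data with independent noise for each gene and changes only in genes well above the test minimum. That trial does not bear on shifts of whole libraries or on genes at low level. Collagen genes passing that test, the 12 with the highest mean and those with an unadjusted p under 0.05 were described in each table, with at most 4 smallest-p and 2 highest-mean genes of each partner list. *Col4a5*, *Col5a3*, *Col7a1*, *Col8a1*, *Col14a1*, *Col15a1*, *Col23a1*, *Col28a1* and *Ddr2* in tumors and *Pcolce2* in cells fall outside this rule and were chosen after their values were seen. *Epcam* in tumors is likewise outside the rule, as are partner and marker genes given in cells at levels below the test minimum. The members, lists and tests were chosen with earlier results of these data known. Positions are GENCODE vM1 on NCBIM37 (mm9), cell symbols come from 32709 named Ensembl identifiers, and promoter sequences are RefSeq's on GRCm38.p6.

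The labels give 1 tumor of each group per experiment, so experiment numbers pair the tumors. The same-numbered tumors' deviations from group means correlated at 0.14, 0.33 and −0.12 over genes. Nothing states that plate numbers pair cells. Alternatives were other pseudocounts, filters and scalings, a replicate block, no variance trend, a transcript length covariate, each library left out and, chosen after seeing the data, both tumors of experiment 2 left out.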

Additional observations from a re-analysis of the deposited data

How the results depend on the processing

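None of the 29 collagen genes tested in tumors and none of the 12 in cells was called by limma, and the count stayed 0 under every alternative but 2. In cells quantile normalization and median-ratio scaling each called 1, *Col5a3*, at log2 fold changes of −0.42 and −0.46. The median over the collagen genes tested in cells, −0.087, was −0.0049 without a filter, where 38 were tested, and −0.13 with quantile normalization. The cause was not tested in either case.

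Leaving out each library in turn gave medians of −0.042 to 0.34 in tumors and −0.11 to −0.075 in cells, 0 calls in both, and *Rnaseh2c* between −1.19 and −0.64 in tumors and between −0.64 and −0.31 in cells. Over all genes in cells it took the calls from 270 to between 2 and 18, or to 248 without the first scr plate. Several uncalled genes changed direction as libraries were left out, and their ranges in tumors were −0.46 to 0.35 for *Col3a1*, −0.19 to 0.62 for *Col1a1*, −0.12 to 0.44 for *Col5a2*, −0.17 to 0.13 for *Col16a1*, −0.024 to 0.46 for *Col6a2*, −0.48 to 0.088 for *Col5a1*, −0.74 to 0.59 for *Col12a1*, −0.089 to 0.42 for *Col4a2*, −0.15 to 0.40 for *Col7a1*, −0.098 to 0.92 for *Col8a1*, −0.52 to 0.080 for *Col14a1*, −0.38 to 0.053 for *Col15a1*, −0.22 to 0.40 for *Col23a1*, −0.063 to 0.33 for *Ddr2*, −0.093 to 0.23 for *Sparc*, −0.24 to 0.75 for *Bgn* and −1.0 to 0.10 for *Dcn*. In cells they were −0.012 to 0.057 for *Col16a1*, −0.048 to 0.025 for *Col12a1*, −0.035 to 0.081 for *Col11a2*, −0.020 to 0.22 for *Col10a1* and −0.099 to 0.080 for *Col17a1*.

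Without both tumors of experiment 2, chosen after seeing the data, direction changed for *Col3a1* at 0.25, *Col16a1* at 0.20, *Col5a1* at 0.016, *Col12a1* at −0.28, *Col14a1* at 0.26, *Col15a1* at 0.19, *Col23a1* at −0.36 and *Bgn* at −0.26, none of them called. *Col16a1* in tumors was 0.034 with quantile normalization and 0.056 with median-ratio scaling. In cells *Col17a1* was −0.013 with a pseudocount of 0.1, *Col12a1* was 0.029 with quantile normalization, and with the length covariate *Col16a1* was −0.0089, *Col11a2* −0.065 and *Serpinh1* −0.014. Quantile normalization also called *Bmp1*, *Plod1*, *P4ha1*, *Loxl4* and *Itga10* in cells (adjusted p = 0.024, 0.0497, 0.039, 0.036 and 0.047) and median-ratio scaling *Bmp1* and *Agrn* (0.027 and 0.0488). The cause of these changes was not tested.

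With the replicate block, 0 collagen genes were called in either table, and the medians stayed 0.15 in tumors and −0.087 in cells. Among all genes of the cell table the block took the calls from 270 to 0, and with them those of *Ddr2* (adjusted p = 0.169), *Adamts14* and *Lamb2* (0.259 for both), though nothing states that plate numbers pair the cells and same-numbered plates correlated at −0.061 to −0.075. It changed no other call. All-gene calls in cells numbered 246 and 257 with pseudocounts of 0.1 and 1, 408 at a mean of at least 1, 77 without a filter, 1223 with quantile normalization, 1045 with median-ratio scaling, 171 without the variance trend and 83 with the length covariate. *Lamb2* lost its call without a filter, without the trend and with the length covariate (adjusted p = 0.068, 0.066 and 0.0998), and *Adamts14* with the latter pair (0.0501 and 0.060).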

Other observations

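The chains *Col6a3* and *Col6a5* of type VI collagen were found in the cell table but are not among the 41 genes, which were chosen from the tumor table used here. *Col6a3*, the third main chain of type VI collagen, read 0.15, 0.13 and 0.098 FPKM in scr cells and 0.048, 0.050 and 0.056 in sh4 cells, without overlap. Its mean of 0.089 FPKM was under the minimum for a test, and *Col6a2* was near 0 in the same plates. *Col6a5* had a mean of 0.0013 FPKM and was above 0 in 4 of 6 plates.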
